A study of Mus musculus with 4 samples.

Results

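Pleiotrophin (Ptn) and midkine (Mdk), 2 related heparin-binding growth factors, were followed together with the cell-surface proteins that bind them: the receptor phosphatase Ptprz1, the syndecans Sdc1, Sdc2, Sdc3 and Sdc4, and the scavenger receptor Lrp1. The 8 genes, of 32285 in the deposited tables, were taken by symbol. They were selected on their UMI levels by library and cell class, with earlier results of these data in view, so their values are a description and carry no test. The tissue was the digit of FVB/NJ wild-type mice, 8 weeks old, at the middle phalanx (P2), a level of amputation that the submitters call non-regenerative. One single-cell RNA library came from unamputated digits, and 1 each from digits at 12, 17 and 28 days post-amputation (dpa). Animals of both sexes were pooled in each library, per the labels, which do not give their number. Cells were released by trypsin and collagenase I, freed of red cells and sorted as live with propidium iodide, so the share of each cell class also reflects what the digestion released.

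Pleiotrophin and midkine are small secreted proteins that share a cysteine-rich fold and stick to sulfated sugar chains. Ptprz1, a transmembrane tyrosine phosphatase that carries chondroitin sulfate, is inhibited when pleiotrophin binds it. Syndecans are transmembrane core proteins that carry heparan sulfate and hold growth factors at the cell surface, and Lrp1 is a large endocytic receptor that takes up midkine among many ligands. Both growth factors are known from developing bone, nerve and skin.

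In GENCODE M21 (GRCm38), Ptn lies at chr6:36714929-36810220 on the minus strand and Mdk at chr2:91929805-91932297 on the minus strand. Ptprz1 lies at chr6:22875502-23052916 on the plus strand and Lrp1 at chr10:127538161-127621148 on the minus strand. The syndecan genes are on 4 chromosomes, Sdc1 at chr12:8771323-8793715, Sdc2 at chr15:32920723-33034935, Sdc3 at chr4:130792537-130826319 (all plus strand) and Sdc4 at chr2:164424247-164443887 (minus strand). All 8 are protein-coding. Antisense genes overlap Sdc3 (Gm12970, Gm26716) and Lrp1 (Gm16217), and held 0, 68 and 33 UMIs over all kept cells, against 10989 for Sdc3 and 100953 for Lrp1.

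The kinship of the ligands is visible in their coding sequence. The 60 bases with the most matches in a global alignment of the coding sequences are shown because they show how close the pair is. Capitals mark the 48 bases that are the same in both, and over the 419 aligned bases 67.3% were identical. The stretch runs from coding base 253 to 312 of 507 in Ptn and from 199 to 258 of 423 in Mdk.
Ptn coding stretch: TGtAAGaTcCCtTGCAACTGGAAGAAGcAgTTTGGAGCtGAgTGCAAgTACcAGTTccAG
Mdk coding stretch: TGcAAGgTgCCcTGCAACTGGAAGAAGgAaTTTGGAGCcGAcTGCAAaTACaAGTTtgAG

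The last 36 coding bases of the syndecans, stop codon included, are shown because this end of the protein, which binds PDZ-domain proteins such as syntenin, is common to the family. Capitals mark the 13 bases that are the same in all 4, most of them just before the stop codon. Sdc1 and Sdc3 shared 83.3% of these bases and Sdc2 and Sdc4 shared 75.0%, while the pairs across these couples shared 44.4% to 58.3%.
Sdc1 coding end: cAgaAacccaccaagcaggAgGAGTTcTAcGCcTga
Sdc2 coding end: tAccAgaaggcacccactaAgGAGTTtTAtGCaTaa
Sdc3 coding end: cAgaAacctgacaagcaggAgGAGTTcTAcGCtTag
Sdc4 coding end: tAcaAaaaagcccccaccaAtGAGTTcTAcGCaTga

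The 250 bases before the RefSeq start of Ptn, chr6:36810180-36810429 on the minus strand (GRCm38.p6), are shown because Ptn had the lowest 28 dpa ratio of the 8 genes in fibroblast-like cells. Capitals mark the only match, at -81 to -77 from the start, among 4 motifs searched on both strands. The box named for TATA was searched with the letters TATAAA. The motif known from GC-rich promoters was searched with the letters GGGCGG. The box bound by factor NF-Y was searched with the letters CCAAT, and the motif of the AP-1 family with the letters TGANTCA. Of 32851 promoters of the same length, 33.8% held CCAAT, 32.7% GGGCGG, 12.4% TATAAA and 6.75% TGANTCA. RefSeq promoters were matched for 6 of the 8 members, all but Mdk and Sdc2. CCAAT was found in Ptn and Sdc1 and GGGCGG in the 5 others than Ptn.
Ptn promoter: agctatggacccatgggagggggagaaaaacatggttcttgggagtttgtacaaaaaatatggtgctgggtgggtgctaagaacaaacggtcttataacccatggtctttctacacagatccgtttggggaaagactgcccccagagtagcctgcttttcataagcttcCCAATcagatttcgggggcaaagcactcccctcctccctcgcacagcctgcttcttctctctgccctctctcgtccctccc

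The 4 libraries held 92313847 to 197140774 UMIs over 8813 to 16045 barcodes. After filters on genes, UMIs, mitochondrial share and doublets, 34531 cells were kept, 6471 to 10189 per library, with a median of 6644 (28 dpa) to 11550.0 (unamputated) UMIs per cell. Pairs of libraries shared 19 to 87 barcodes. By Xist and Y-linked UMIs, 2274 to 5310 cells per library had no sex call. Among cells with a call, all 4 libraries went against the label of pooled sexes, and the 12 dpa library stood apart. There 0 of 3506 called cells were male, which allows a share of up to 0.0856% of called cells. Female cells were 1 of 7915 called unamputated, 0 of 4594 at 17 dpa and 0 of 4689 at 28 dpa, where a count of 0 allows up to 0.0653% and 0.0640%. In the 12 dpa comparisons, sex and time cannot be told apart. Of 28 clusters, 25 were named from marker lists, and none of the 8 genes entered the clustering. Fibroblast-like cells carried the markers of distal limb origin Hoxd13 (27.8 to 45.1 CPM) and Hoxa13 (14.7 to 24.5 CPM), and Prrx1 (773 to 991 CPM). The other genes chosen for this check of digit origin were low: Tbx5 (5.26 to 11.2 CPM), Pitx1 (1.48 to 5.01 CPM) and Hoxd12 (0.369 to 1.43 CPM). Different clusters held most fibroblast-like cells in different libraries: a cluster led by C4b and Lsamp in the unamputated (431 of 834) and 17 dpa (957 of 1449) libraries, one led by Tmem132c and Prss35 at 12 dpa (449 of 657), and one led by Wnt2 and Ccn3 at 28 dpa (1276 of 2097).

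Levels are in the usual CPM, the summed UMIs of a gene as a share of all UMIs of a class in a library, scaled up by a fixed factor, and ratios are log2 of a dpa level over the unamputated level after adding 1 CPM to both. Intervals are exact 95% intervals, Poisson for levels, binomial for the split of UMIs between 2 libraries, and Clopper-Pearson for shares, and cover counting error only. Each group held 1 library, so no difference has a replicate check and no p-value was computed. A ratio is called higher or lower here when it was at least 2-fold, its interval excluded no change, the higher level reached 20 CPM and both libraries held at least 50 cells. Over all classes and libraries, 17 of 237 tested member values were called higher and 17 lower. Over all genes in the same 54 comparisons, 2.35% of 365020 tested values were called higher and 3.97% lower. The members were chosen with these values known, so nothing is read from the difference. Ptn and Mdk were called in the lower direction in each of their 8 calls, 5 for Ptn and 3 for Mdk. Lrp1, Sdc2 and Sdc3 had 8 calls, each in the higher direction, and Ptprz1, Sdc1 and Sdc4 had calls in both directions. Each of the 8 calls of Lrp1, Sdc2 and Sdc3 ended under an alternative way of processing. All but the Sdc3 call lay in lymphoid or neutrophil-like cells. The Ptn and Mdk calls in tenocyte-like cells and the Ptn call in vascular endothelial-like cells also ended under an alternative.

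**Figure D1:**
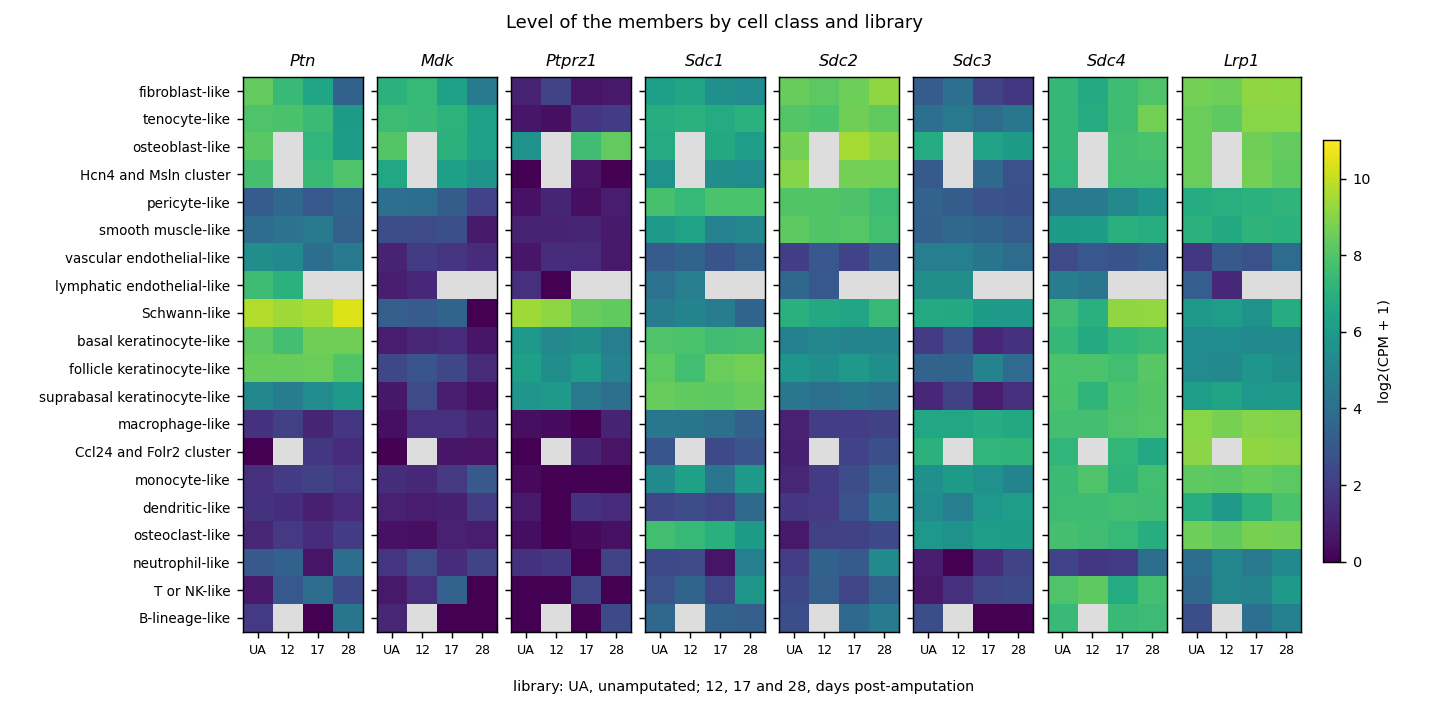
Level of the 8 genes as log2(CPM + 1), by cell class (rows) and library (columns; UA, unamputated; 12, 17 and 28 dpa), with grey where a class held under 50 cells. Ptn is brightest in Schwann-like cells in every library and darkens across the columns in fibroblast-like cells, from 325 to 9.64 CPM.

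Ptn in fibroblast-like cells was at 325 CPM (317 to 334) in the unamputated library, and at 169 (160.2 to 178), 88.8 (84.6 to 93.2) and 9.64 CPM (8.38 to 11) in the 12, 17 and 28 dpa libraries. The levels were ordered by day, highest without amputation, and no interval overlapped another. In UMIs summed over a class, fewer expressing cells and less RNA per cell cannot be told apart, so the share of cells is given next to the level. The ratio was -0.94 (-1.03 to -0.86) at 12 dpa, just short of a call, and past 2-fold under 5 alternatives, down to -1.69 with no doublets removed, while it was -0.39 with each cell named alone. At 17 dpa it was -1.86 (-1.94 to -1.78), 3.66-fold lower, in a comparison in which 2.31% of 6884 tested genes were called lower. At 28 dpa it was -4.94 (-5.12 to -4.76), 33.7-fold lower, where 8.19% of 7025 genes were called lower, and 3 of those genes had a lower ratio than Ptn. When each cell was named alone from its markers, without clusters, the 28 dpa ratio was -2.69, and when the Hcn4 and Msln cluster, closest to fibroblasts, was counted in, it was -3.42.

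Cells holding at least 1 Ptn UMI were ordered the same way. After thinning each fibroblast-like cell to 2000 UMIs, their share stood at 27.9% (24.8 to 31.1) in the unamputated library, and at 17.5% (14.7 to 20.7), 11.4% (9.84 to 13.2) and 1.95% (1.40 to 2.64) in the 12, 17 and 28 dpa libraries. Thinning left out 12, 13, 34 and 44 shallower cells, and the unthinned shares were 57.1%, 41.2%, 28.8% and 5.67%. In macrophage-like cells, which should lack Ptn, the thinned share was 0.423%, 0.732%, 0.513% and 0.80% (0.0203 to 4.38 at 28 dpa), so at 28 dpa the intervals of both classes overlapped. Median depth in the unamputated and 28 dpa libraries was 19432 and 9053 UMIs in fibroblast-like cells and 10582 and 5470.5 in macrophage-like cells.

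The lower Ptn level at 28 dpa was also present within single clusters. In the cluster led by C4b and Lsamp, Ptn was at 523 CPM unamputated, and at 210.3, 103 and 18.4 CPM in the 12, 17 and 28 dpa libraries, a 28 dpa ratio of -4.76 (-5.03 to -4.50). In the cluster led by Wnt2 and Ccn3, which held little Ptn from the start, it was at 99.0, 99.2, 66.4 and 6.22 CPM in that order. The cluster led by Tmem132c and Prss35 had 202 CPM unamputated, 188 CPM at 12 dpa and 51.9 CPM at 17 dpa, and only 15 cells at 28 dpa. With the clusters held in the unamputated mix, the class ratio at 28 dpa was -4.20, in place of -4.94. That mix gives the cluster led by Tmem132c and Prss35 its unamputated weight, although its 28 dpa level rested on 1 Ptn UMI in 15 cells. Markers of other cells differed between the same libraries: the 7 basal keratinocyte markers summed to 40.8 to 65.1 CPM before 28 dpa and 122 CPM at 28 dpa, and the 8 suprabasal ones to 169 to 304 CPM and 709.6 CPM, each marker above 0 in each library. The 8 chondrocyte or joint lining markers summed to 66.9, 80.5, 124 and 309 CPM, with at most 1 at 0, and the 7 pericyte markers to 54.7, 73.7, 97.6 and 121 CPM. Of the pericyte sum, Cspg4, also listed as a receptor of the growth factors, made 23.7, 35.6, 41.1 and 81.3 CPM. The part of these other cells in the Ptn result was not tested. The 11 fibroblast markers summed to 58719.8 CPM unamputated and 42348 CPM at 28 dpa.

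**Figure D2:**
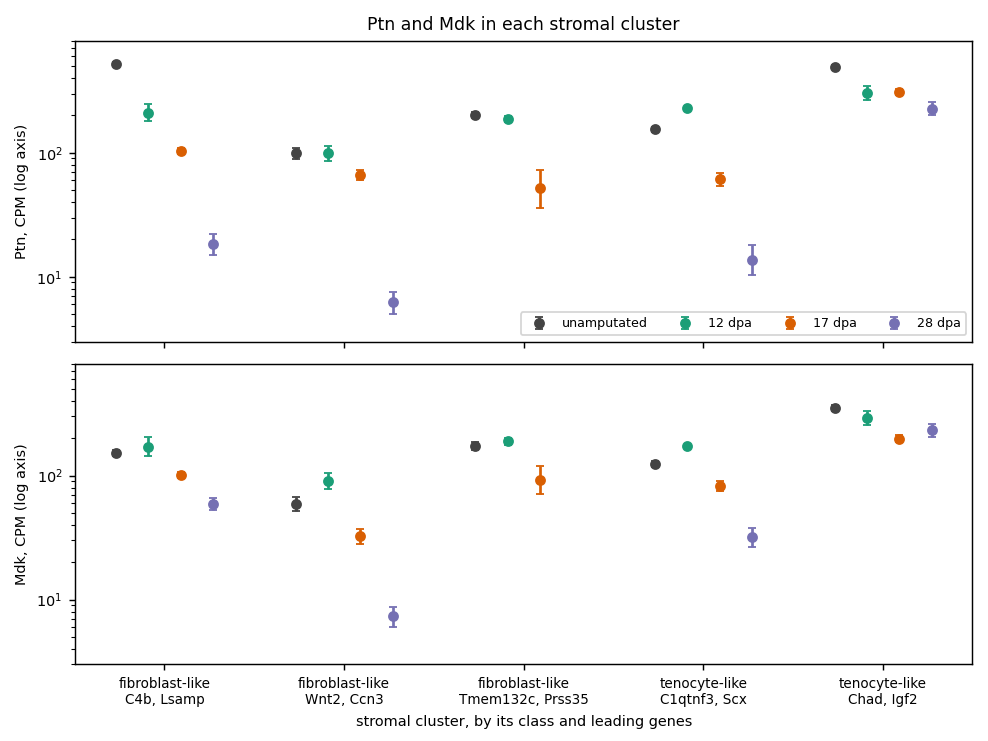
Ptn (top) and Mdk (bottom) in CPM on a log axis, in 3 fibroblast-like and 2 tenocyte-like clusters named by leading genes, with 1 point per library and exact 95% Poisson bars. The 28 dpa point is lowest for Ptn in each of the 4 clusters that have one, and the cluster led by Tmem132c and Prss35 has none because it held 15 cells.

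Tenocyte-like cells, which express the tendon factors Scx and Tnmd, held Ptn at 247 CPM unamputated, and at 230.1, 180.3 and 63.0 CPM in the 12, 17 and 28 dpa libraries. The 28 dpa level was 3.92-fold lower than unamputated, a ratio of -1.95 (-2.12 to -1.79), where 4.34% of 6795 genes were called lower. The clusters of this class differed, and so did their mix: the one led by C1qtnf3 and Scx held 428 of 681 cells unamputated, 1420 of 1480 at 12 dpa and 261 of 698 at 17 dpa. Within it the 12 dpa Ptn ratio was 0.56 (0.49 to 0.64), opposite in sign to the class level, and in the one led by Chad and Igf2 it was -0.69 (-0.89 to -0.49). At 28 dpa the one led by C1qtnf3 and Scx went from 154 to 13.7 CPM, a ratio of -3.39 (-3.77 to -3.03), while the one led by Chad and Igf2 went from 493 to 226 CPM, a ratio of -1.12 (-1.30 to -0.94). With finer clusters (Leiden resolution 2) the class ratio was -0.69 and the call ended. With no doublets removed it was -3.45.

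Osteoblast-like cells had Ptn at 288 CPM unamputated, 150.1 CPM at 17 dpa and 66.3 CPM at 28 dpa. The 28 dpa ratio was -2.10 (-2.34 to -1.87), 4.34-fold lower, where 7.11% of 7043 genes were called lower, and it was -1.41 with each cell named alone. The 12 dpa library held 4 cells of this class and is left out. The Hcn4 and Msln cluster, which carried fibroblast markers but stayed unnamed because a sweat gland marker was among its leading genes, did not share the pattern. Its Ptn interval was 196 to 241 CPM unamputated, 155 to 181 CPM at 17 dpa and 226 to 272 CPM at 28 dpa, and its 28 dpa ratio of 0.19 (-0.01 to 0.39) had an interval that includes no change.

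Outside the stroma, Ptn was highest in Schwann-like cells, the myelinating and supporting glia of nerves. Their level was 847 CPM (816 to 878) unamputated, and at 698 (659 to 738), 780.4 (722 to 842) and 1386 CPM (1303 to 1472) in the 12, 17 and 28 dpa libraries. The 28 dpa level was the highest of the 4, with a ratio of 0.71 (0.61 to 0.81), short of 2-fold. Basal keratinocyte-like cells had 303 CPM unamputated, and at 211, 391 and 393 CPM in the 12, 17 and 28 dpa libraries, so the 28 dpa ratio was 0.37 (0.30 to 0.44) where that of fibroblast-like cells was -4.94. Follicle keratinocyte-like cells were at 352, 348, 372 and 255 CPM. Vascular endothelial-like cells were at 42.2, 36.1, 14.5 and 22.9 CPM, and the 17 dpa ratio of -1.48 was called lower, where 0.345% of 6958 genes were. It was -0.99 with no doublets removed. Lymphatic endothelial-like cells were at 191 CPM unamputated and 129 CPM at 12 dpa, and at 405 and 700.1 CPM at 17 and 28 dpa on 30 and 27 cells, too few for a call.

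In the order of classes, Schwann-like cells came first for Ptn in each library and their interval did not overlap the next. Fibroblast-like cells stood in the third place in the unamputated library, above basal keratinocyte-like cells and below follicle keratinocyte-like cells, with no overlap. At 17 dpa basal and follicle keratinocyte-like cells, at 391 and 372 CPM, did not differ beyond their intervals. The place where Ptn UMIs lay changed accordingly. The stroma (fibroblast-, tenocyte- and osteoblast-like cells and the Hcn4 and Msln cluster) held 53.5% (52.8 to 54.1) of Ptn UMIs in the unamputated library, and 70.0%, 58.4% and 16.3% (15.5 to 17.2) in the 12, 17 and 28 dpa libraries. Keratinocytes held 26.4%, 14.0%, 30.5% and 65.2% in that order. The stroma made up 18.2% of cells unamputated and 33.0% at 28 dpa, and keratinocytes 14.0% and 17.7%. Over all cells, Ptn was at 156 CPM unamputated, and at 148, 107 and 92.7 CPM in the 12, 17 and 28 dpa libraries, a smaller difference than within the stroma.

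**Figure D3:**
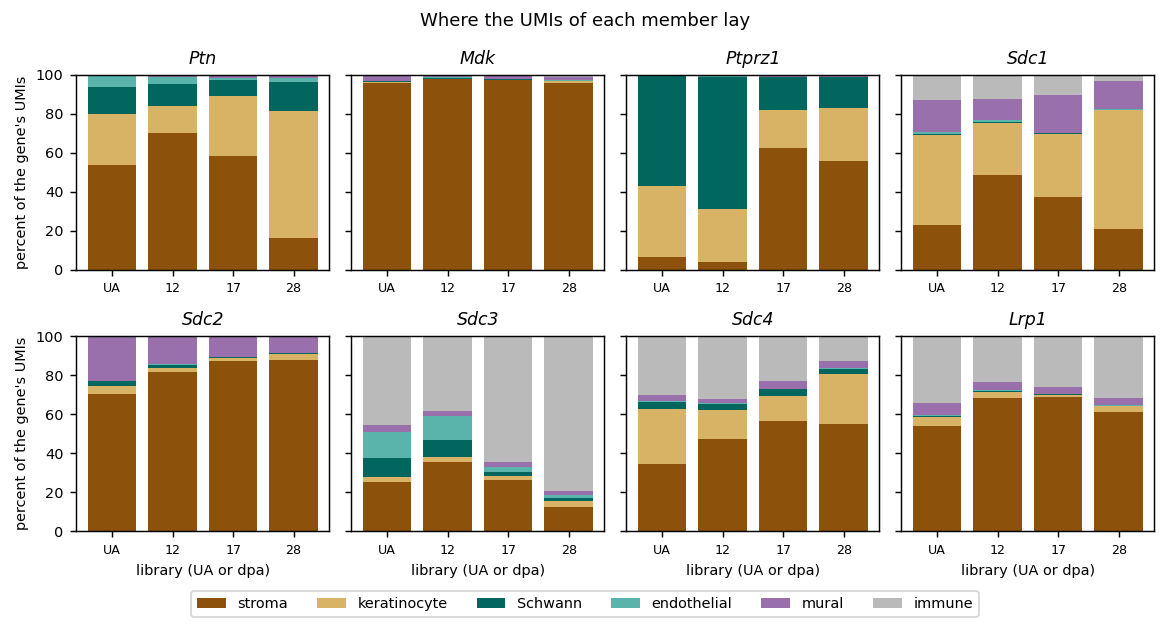
Percent of the UMIs of each gene that lay in stroma, keratinocytes, Schwann-like, endothelial, mural (pericyte- and smooth muscle-like) and immune cells, per library (UA, unamputated; 12, 17 and 28 dpa). For Ptn the stromal part is 53.5% unamputated and 16.3% at 28 dpa, for Mdk it is 95.7% or more in each library, and for Ptprz1 it is 6.73% and 55.6%.

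Mdk was almost wholly stromal. The stroma held 95.7% of Mdk UMIs unamputated, then 97.5%, 97.0% and 95.7% in the 12, 17 and 28 dpa libraries, and basal keratinocyte-like cells, rich in Ptn, had 0.577 to 1.59 CPM. In Schwann-like cells Mdk was at 8.05 to 10.5 CPM in the first 3 libraries, and 0 UMIs were found at 28 dpa, which allows up to 3.98 CPM.

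Mdk in fibroblast-like cells was at 135 CPM (129.7 to 141) unamputated, and at 164 (156 to 173), 76.8 (72.9 to 80.9) and 21.7 CPM (19.8 to 23.7) in the 12, 17 and 28 dpa libraries. The 12 dpa level was thus the highest and the 28 dpa level the lowest, and no interval overlapped another. The ratios were 0.28 (0.18 to 0.37), -0.81 (-0.90 to -0.71) and -2.59 (-2.73 to -2.45), and only the last was called, at 6.24-fold lower. The 12 dpa ratio turned to -0.32 with no doublets removed and was 0.81 with finer clusters. Of 7025 tested genes, 48 had a lower 28 dpa ratio than Mdk. After thinning, 21.3%, 21.6%, 12.4% and 4.92% of fibroblast-like cells had a Mdk UMI, against 0.172% to 0.667% of basal keratinocyte-like cells, whose median depth was 9997 to 18006 UMIs.

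By cluster, the 28 dpa ratio of Mdk was -1.35 (-1.53 to -1.18) in the fibroblast-like cluster led by C4b and Lsamp, where it went from 152 to 59.0 CPM. It was -2.86 (-3.16 to -2.56) in the one led by Wnt2 and Ccn3, which went from 59.2 to 7.31 CPM. Both were smaller in size than the Ptn ratios of the same clusters, -4.76 and -3.79, with no overlap of intervals. In tenocyte-like cells Mdk was at 186, 175, 138 and 78.3 CPM, and in osteoblast-like cells at 262 CPM unamputated, 135 CPM at 17 dpa and 77.2 CPM at 28 dpa. The 28 dpa ratios of -1.24 (-1.39 to -1.09) and -1.75 (-1.97 to -1.53) were both called lower. In the cluster led by C1qtnf3 and Scx, Mdk was at 124, 172, 82.2 and 31.9 CPM, highest at 12 dpa, and in the one led by Chad and Igf2 at 351, 291, 199 and 232 CPM. The tenocyte-like class ratio was -0.23 with finer clusters and -1.90 with no doublets removed. The Hcn4 and Msln cluster had 95.6 CPM unamputated, 73.0 CPM at 17 dpa and 50.1 CPM at 28 dpa, and its ratio of -0.92 (-1.29 to -0.55) was lower than that of Ptn in the same cells.

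**Figure D4:**
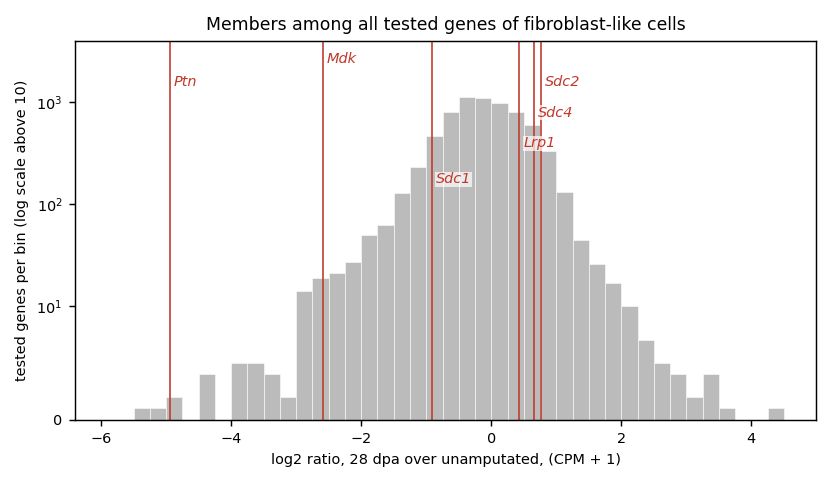
Number of tested genes per bin of the log2 ratio of 28 dpa over unamputated in fibroblast-like cells (7025 genes; vertical axis linear to 10 and logarithmic above), with red lines at the members that reached 20 CPM. Ptn (-4.94) and Mdk (-2.59) lie in the left tail, Sdc1 at -0.91, and Lrp1 (0.43), Sdc4 (0.66) and Sdc2 (0.76) right of 0.

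Ptprz1, the phosphatase receptor, had its highest level in Schwann-like cells in the unamputated, 12 and 17 dpa libraries. There it was at 679.9 CPM (653 to 708) unamputated, and at 559 (524 to 595), 349 (310.2 to 391) and 313 CPM (275 to 356) in the 12, 17 and 28 dpa libraries. Only the 17 and 28 dpa intervals overlapped. The 28 dpa ratio was -1.12 (-1.31 to -0.92), called lower, where 5.32% of 7431 genes were, and was -0.76 in male cells alone, which ends the call. Sox10, a glial marker, was at 222 CPM unamputated and 305 CPM at 28 dpa. Median depth of these cells was 11975 UMIs unamputated and 4160.0 at 28 dpa, and the thinned share with a Ptprz1 UMI was 67.7%, 61.4%, 44.0% and 35.5%.

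In osteoblast-like cells the ratio had the opposite sign. Ptprz1 was at 49.8 CPM unamputated, 199 CPM at 17 dpa and 324 CPM at 28 dpa, with no overlap of their intervals. The ratios were 1.98 (1.78 to 2.18) at 17 dpa and 2.68 (2.47 to 2.88) at 28 dpa, 4.0- and 6.50-fold higher, where 1.73% of 6994 and 2.84% of 7043 genes were called higher. The thinned share of osteoblast-like cells with a Ptprz1 UMI was 7.36% (4.35 to 11.5), 25.1% (20.8 to 29.7) and 37.6% (32.4 to 43.0), against 0.0707% to 0.621% of fibroblast-like cells. With the mean over cells in place of the sum, the ratios were 1.16 and 1.95, and under the stricter filter on cells 2.57 and 3.45. Markers of mature bone cells differed beside it: Dmp1, of osteocytes, was at 58.5 CPM unamputated, 327 CPM at 17 dpa and 237 CPM at 28 dpa, and Bglap, osteocalcin, at 1118, 2594 and 4441 CPM. Sp7, of osteoblast precursors, was at 129.7, 105 and 104 CPM. The 8 Schwann markers summed to 5.66 to 12.8 CPM in these libraries, with 1 to 3 of them at 0. The 7 basal keratinocyte markers summed to 31.7, 47.9 and 209 CPM, all above 0, the 8 suprabasal ones to 83.0, 81.5 and 303 CPM, with at most 1 at 0, and the 7 smooth muscle markers to 294, 30.4 and 36.4 CPM, all above 0. At 28 dpa the keratinocyte classes had 15.7 to 28.4 CPM of Ptprz1. The part of bone cell maturity or of these other cells in the Ptprz1 level of osteoblast-like cells was not tested. In the unamputated library, Schwann-like cells held 56.1% of Ptprz1 UMIs and osteoblast-like cells 6.04%, and at 28 dpa the shares were 15.8% and 53.6%.

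Keratinocytes also held Ptprz1, at lower CPM at 28 dpa than unamputated in each of their 3 classes. Basal cells were at 57.4, 34.8, 41.7 and 25.2 CPM, follicle cells at 73.0, 41.8, 64.4 and 28.4 CPM, and suprabasal cells at 52.9, 60, 20.9 and 15.7 CPM. The 28 dpa ratios were -1.16 (-1.38 to -0.94), -1.33 (-1.64 to -1.03) and -1.69 (-2.03 to -1.37), each called lower, in comparisons in which 2.24% of 6930, 3.43% of 7457 and 3.80% of 6444 genes were. The suprabasal 17 dpa ratio of -1.30 was also called, where 1.41% of 6448 genes were lower, but was -0.77 with the mean over cells. Under the stricter filter on cells the suprabasal ratios were -2.79 at 17 dpa and -3.18 at 28 dpa. The basal 28 dpa call ended with the mean over cells (-0.84) or with the median of all genes subtracted (-0.92), and the follicle call with no doublets removed (-0.52). Markers of the other epithelial classes differed beside these levels. The 7 follicle markers summed to 582, 645, 472 and 230.5 CPM in basal cells and to 1359, 1055, 1069 and 608 CPM in suprabasal cells, with at most 1 at 0. In follicle cells the 7 hair or nail matrix markers summed to 552, 885, 975 and 1489.6 CPM, with at most 1 at 0, and the 8 suprabasal ones to 1283, 1101, 1607 and 2819.6 CPM, all above 0. Their part was not tested.

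**Figure D5:**
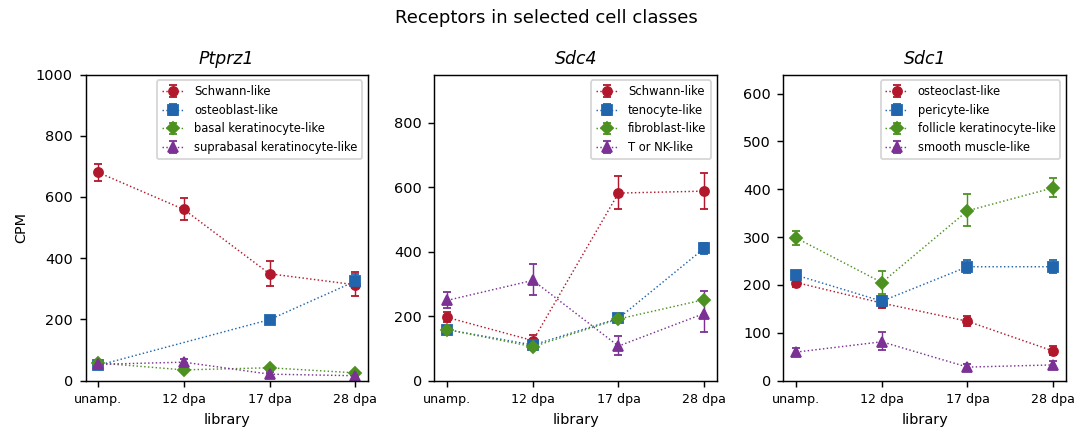
Ptprz1, Sdc4 and Sdc1 in CPM by library in 4 classes each, with exact 95% Poisson bars and dotted lines that only join points of a class. Ptprz1 goes from 679.9 to 313 CPM in Schwann-like and from 49.8 to 324 CPM in osteoblast-like cells, and osteoblast-like cells have no 12 dpa point because that library held 4 of them.

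Sdc1, the syndecan typical of epithelia and plasma cells, was highest in keratinocytes. Suprabasal cells were at 347, 322, 312 and 347 CPM over the 4 libraries, follicle cells at 298, 205, 355 and 403 CPM and basal cells at 249.6, 232, 199.6 and 214 CPM. None of these differed 2-fold from unamputated. Pericyte-like cells, which wrap small vessels, were at 220.4, 166, 238 and 238 CPM, below basal cells in the unamputated and 12 dpa libraries and above them in the 17 and 28 dpa libraries, with no overlap of intervals. Tenocyte-like cells stayed between 108 and 129 CPM, and fibroblast-like cells were at 74.0, 88.0, 45.4 and 39.0 CPM, a 28 dpa ratio of -0.91 (-1.03 to -0.78).

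Osteoclast-like cells, a cluster led by Atp6v0d2 and Acp5, had Sdc1 at 205 CPM (196 to 215) unamputated, and at 162 (152 to 173), 124 (114 to 134) and 61.8 CPM (52.4 to 72.3) in the 12, 17 and 28 dpa libraries. The levels were ordered by day with no overlap of intervals. The 28 dpa ratio was -1.71 (-1.96 to -1.48), 3.32-fold lower, where 4.05% of 6486 genes were called lower, and it was -0.78 with finer clusters, which ends the call. The 7 osteoclast markers summed to 5498, 3095, 3537 and 5117 CPM in the same cells, lowest at 12 dpa. Among them Ctsk, a bone-resorbing protease, was at 3323, 1717, 2236 and 3321 CPM, and Acp5, an acid phosphatase, at 1347, 888, 791 and 1112 CPM. Their part in the Sdc1 level was not tested. Smooth muscle-like cells had 59.5 CPM unamputated and 28.1 CPM at 17 dpa, a ratio of -1.06 called where 1.41% of 6931 genes were lower, and -0.02 with no doublets removed. In Schwann-like cells Sdc1 went from 24.6 to 10.6 CPM at 28 dpa on 86 and 8 UMIs, a ratio of -1.14 (-2.24 to -0.16) that turned to 0.34 with no doublets removed. Monocyte-like cells had 37.8 CPM unamputated and 77.1 CPM at 12 dpa, 2.04-fold higher, where 1.53% of 6329 genes were called higher. The ratio of 1.01 was 0.77 with the looser and 0.79 with the stricter filter on cells, which ends the call.

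Sdc2, a syndecan of connective tissue cells, had 70.3% of its UMIs in the stroma unamputated, then 81.4%, 87.3% and 88.0% in the 12, 17 and 28 dpa libraries, and most of the rest in mural cells. Fibroblast-like cells were at 345, 299.9, 385 and 585 CPM, and the 28 dpa ratio of 0.76 (0.72 to 0.81), with 1.70-fold, was not called. Osteoblast-like cells were at 417 CPM unamputated, 732 CPM at 17 dpa and 545 CPM at 28 dpa. Tenocyte-like cells were at 264, 238, 396 and 321 CPM and pericyte-like cells at 257, 258, 239.8 and 188 CPM. Fibroblast-like cells thus held more Sdc2 and less Ptn at 28 dpa than unamputated. Over all cells Sdc2 was at 137, 151, 244 and 242 CPM, in libraries in which the stroma made up 18.2%, 33.5%, 37.6% and 33.0% of cells.

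Sdc3, the syndecan of nerve and of macrophages, was at 134 CPM unamputated, 152 CPM at 17 dpa and 145 CPM at 28 dpa in the Ccl24 and Folr2 cluster, closest to macrophages, which ranked first in these libraries and held 34 cells at 12 dpa. Unamputated, its interval overlapped that of the next class. Macrophage-like cells were at 96.4, 91.9, 112 and 102 CPM. Schwann-like cells were at 105, 97.8, 62.0 and 59.7 CPM and osteoblast-like cells at 110.1 CPM unamputated, 79.3 CPM at 17 dpa and 63.5 CPM at 28 dpa, none called. Unamputated, the macrophage-, Schwann- and osteoblast-like levels did not differ beyond their intervals, and at 12 dpa the same held for Schwann- and macrophage-like cells, the highest there among classes with at least 50 cells. Fibroblast-like cells had 2.45 to 15.4 CPM. The only call was in follicle keratinocyte-like cells at 17 dpa, 29.0 against 10.3 CPM on 36 and 54 UMIs, where 1.51% of 7464 genes were called higher. The ratio of 1.41 was 0.83 with each cell named alone and 0.91 with the mean over cells, which ends the call. Immune cells held 45.3% of Sdc3 UMIs unamputated and 79.3% at 28 dpa. The Ccl24 and Folr2 cluster alone held 3.63% and 67.2% of them, and went from 88 cells, 0.864% of the library, to 1552 cells, 15.5%.

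Sdc4, a syndecan of focal adhesions found in most cell types, was at or above 100 CPM in the unamputated library in stromal, keratinocyte, Schwann-like and most immune classes, and low in vascular endothelial-like (4.69 to 8.29 CPM) and neutrophil-like cells (2.46 to 14.9 CPM). In Schwann-like cells it was at 196 CPM unamputated, and at 124 (108 to 141), 582 (532 to 635) and 588 CPM (534 to 645) in the 12, 17 and 28 dpa libraries. The 2 later libraries were both well above the 2 earlier ones. The ratios of 1.56 (1.39 to 1.73) and 1.58 (1.40 to 1.75) were 2.96- and 3.0-fold higher, where 2.46% of 7392 and 3.20% of 7431 genes were called higher, and ranged from 1.33 to 1.98 and from 1.5 to 1.78 over 11 alternatives each. Dcn, a fibroblast gene, was at 7.44, 13.2, 83.1 and 114 CPM in the Schwann-like cells, and Krt14, a keratinocyte gene, at 26.3, 53.5, 65.5 and 92.9 CPM. At 28 dpa fibroblast-like cells had 251 CPM of Sdc4 and 9089 CPM of Dcn, and the keratinocyte classes had 181 to 283 CPM of Sdc4. The part of such other cells in the result was not tested.

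Tenocyte-like cells had Sdc4 at 158 CPM (152 to 164) unamputated, and at 110.3 (106 to 114), 193 (184 to 202) and 410.1 CPM (393 to 428) in the 12, 17 and 28 dpa libraries. The 28 dpa level stood above the rest, with a ratio of 1.37 (1.29 to 1.45), 2.59-fold higher, where 3.31% of 6795 genes were called higher. It was 1.58 (1.48 to 1.67) in the cluster led by C1qtnf3 and Scx and 0.70 (0.52 to 0.87) in the one led by Chad and Igf2, and 0.96 for the class with finer clusters. Of the tenocyte markers, Comp went from 548 to 3053 CPM, Fmod from 1013 to 2757 CPM and Thbs4 from 368 to 636 CPM at 28 dpa. Scx went from 133 to 149.8 CPM, Tnmd from 180.1 to 189 CPM, Kera from 39.5 to 55.5 CPM and Mkx from 48.3 to 39.2 CPM. Their part in the Sdc4 level was not tested. Pericyte-like cells went from 22.5 to 52.1 CPM at 28 dpa, 2.31-fold higher, where 1.51% of 7242 genes were called higher, and the ratio was 0.89 with no doublets removed. In the same pericyte-like cells the 7 basal keratinocyte markers went from 78.2 to 184 CPM, all above 0, and the 8 suprabasal ones from 121 to 329 CPM, with at most 1 at 0, and their part was not tested. Fibroblast-like cells, at 158, 105, 191 and 251 CPM, had ratios within 2-fold. In T or NK-like cells Sdc4 was at 249, 311, 107 and 208 CPM, and the 17 dpa ratio of -1.22 (-1.65 to -0.80) was called where 7.79% of 6970 genes were lower. It was -0.71 with the mean over cells. In osteoclast-like cells Sdc4 was at 116 CPM at 28 dpa, a ratio of -0.91 that was not called.

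Lrp1 was spread over the stroma and phagocytes. Fibroblast-like cells were at 409.9, 375, 578 and 552 CPM, tenocyte-like cells at 371, 310.4, 531 and 521 CPM, and macrophage-like cells at 519.6, 426, 514 and 480.1 CPM. All 3 class levels were lowest at 12 dpa, but the fibroblast-like clusters differed: the one led by C4b and Lsamp was at 477, 519.8, 650.4 and 742 CPM and the one led by Wnt2 and Ccn3 at 353, 449, 469 and 479 CPM, both lowest unamputated, though the 12 dpa ratio of the first, 0.12 (-0.03 to 0.28), includes no change. The cluster led by Tmem132c and Prss35, which held most fibroblast-like cells at 12 dpa, was at 352 CPM unamputated and, of its 3 libraries with at least 50 cells, lowest at 12 dpa with 329.8 CPM, a ratio of -0.09 (-0.19 to 0.00), with a 17 dpa ratio of 0.05 (-0.15 to 0.25). The 28 dpa ratio was 0.43 (0.39 to 0.47) in fibroblast-like and 0.49 (0.42 to 0.55) in tenocyte-like cells, within 2-fold. Dendritic-like cells were at 116, 61.0, 132 and 229 CPM, with a 28 dpa ratio of 0.97 (0.69 to 1.24), just short of a call. Vascular endothelial-like cells had a ratio of 2.12 (1.57 to 2.64) but only 13.9 CPM at 28 dpa against 2.43 CPM, under the minimum level for a call. Over all cells Lrp1 was at 210.4, 230.4, 368 and 341 CPM, with the same change of cell mix as for Sdc2.

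The remaining calls rested on few UMIs in lymphoid and neutrophil-like cells. Lrp1 in T or NK-like cells was at 11.9, 32.1, 29.6 and 60 CPM on 17, 18, 15 and 13 UMIs, called higher in each dpa library, where 4.56% of 6926, 5.11% of 6970 and 4.90% of 6975 genes were. The 12 dpa ratio of 1.36 turned to -0.33 with no doublets removed and to -1.43 with each cell named alone. The 17 dpa ratio of 1.25 was 0.19 with each cell named alone and 0.32 with no doublets removed, and the 28 dpa ratio of 2.24 was 0.90 with no doublets removed, which ends both calls. The 11 fibroblast markers, of cells rich in Lrp1, summed to 346, 1148, 1326 and 1034 CPM in these T or NK-like cells, with at most 2 at 0, and the 10 macrophage markers to 55.3, 305, 37.5 and 125 CPM, with 1 to 4 at 0. Their part was not tested. Lrp1 in B-lineage-like cells was at 5.22 CPM unamputated and 27.2 CPM at 28 dpa on 4 and 6 UMIs, where 7.07% of 6652 genes were called higher, and the ratio of 2.18 was 0.88 with each cell named alone. In these B-lineage-like cells the 11 fibroblast markers summed to 634 and 1729 CPM and the 10 macrophage markers to 33.9 and 118 CPM, with at most 2 of either list at 0, and their part was not tested. Sdc1 in T or NK-like cells was at 5.6 CPM unamputated and 55.4 CPM at 28 dpa on 8 and 12 UMIs, a ratio of 3.10 that was 1.90 with no doublets removed. The 7 basal keratinocyte markers, whose cells are rich in Sdc1, summed to 199 and 489 CPM in the same T or NK-like libraries, all above 0, and their part was not tested.

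Neutrophil-like cells had calls for Lrp1 at 12 dpa (31.9 against 14.7 CPM, 13 and 73 UMIs) and, at 28 dpa, for Lrp1 (37.1 CPM, 10 UMIs), Sdc1 (26.0 against 4.62 CPM, 7 and 23 UMIs) and Sdc2 (37.1 against 3.01 CPM, 10 and 15 UMIs). With no doublets removed each of these 28 dpa calls ended, at ratios of 0.88 for Lrp1, 0.43 for Sdc1 and 0.17 for Sdc2, and the Lrp1 ratio was 0.35 with each cell named alone. In these comparisons 17.8% of 5217 and 18.6% of 5357 genes were called higher. The cluster led by Camp and Ltf held 422 of 1007 neutrophil-like cells in the unamputated library and none at 12 or 28 dpa. Summed fibroblast markers in these cells were at 412 CPM unamputated, 2069 CPM at 12 dpa and 2161 CPM at 28 dpa. The 7 basal keratinocyte markers summed to 180.2, 317 and 516 CPM in the same libraries and the 8 suprabasal ones to 235, 843 and 862 CPM, with at most 1 of either list at 0. The part of these cells was not tested. The 12 dpa ratio of Lrp1, 1.07, turned to -0.41 with no doublets removed.

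Over 75 units of a class in a library with at least 50 cells, log2(CPM + 1) of the members varied together to different degrees. The units share libraries and depths, so the Pearson correlations are a description. Mdk and Sdc2 had the highest, 0.74, followed by Ptn and Ptprz1 with 0.69 and Ptn and Sdc2 with 0.64, while Ptn and Mdk had 0.47. The 5 genes most like Ptn were Efna5 (0.88), Sgcd (0.87), Sfrp1 (0.86), Vldlr (0.85) and Eda (0.85). Those most like Mdk were Cdh11 (0.92), Cpxm1 (0.92), Col1a1 (0.91), Epha3 (0.91) and Mfap2 (0.90). The closest to Sdc1 were Cep170b (0.81), En1 (0.77), Fam162a (0.75), Eif2s2 (0.75) and Mif (0.74), and to Sdc2 Irs1 (0.93), Gpx8 (0.93), Snhg18 (0.92), Dkk3 (0.92) and Podxl2 (0.92). The closest to Sdc3 were Hfe (0.81), Asah1 (0.80), Stard3nl (0.78), Cttnbp2nl (0.78) and Prune2 (0.77), and to Sdc4 Hspe1 (0.80), Ust (0.80), Hspd1 (0.78), Nme1 (0.75) and Trmt112 (0.75). Among 11 units of a fibroblast-like cluster in a library, Nrep (0.92), Itm2a (0.91), Stx16 (0.88), Lsp1 (0.87) and Idh2 (0.87) were most like Ptn.

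The rest of the pathway was read from 8 lists with 97 genes: other receptors of the growth factors, other heparan sulfate core proteins, enzymes of heparan and chondroitin sulfate chains, partners and sheddases of syndecans, partners of Ptprz1, and ligands of Lrp1. In fibroblast-like cells at 12 dpa, 63 of the 97 genes were tested and 1 was called higher and 2 lower, with a median ratio of -0.06 against -0.03 over all genes tested, where 1.12% and 1.87% of genes were called. At 17 dpa, 0 were called higher and 4 lower of 63, with a median of -0.16 against -0.05, where 0.712% and 2.31% were. At 28 dpa, 3 were called higher and 10 lower of 62, with a median of -0.35 against -0.13, where 3.60% of all genes were called higher and 8.19% lower. At 28 dpa 0 of 10 tested heparan sulfate enzymes were called, with a list median of -0.32. Of 11 tested chondroitin sulfate enzymes 3 were called, all lower, with a list median of -0.48.

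Of 7 tested glypicans and other core proteins, 3 were called lower at 28 dpa, where 8.19% of all 7025 tested genes were, with a list median of -1.0 against -0.13. Gpc3, a glypican, was at 94.2, 58.2, 102 and 31.0 CPM, and Gpc6 at 244, 289.9, 170.5 and 89.1 CPM, ratios of -1.57 (-1.70 to -1.44) and -1.44 (-1.52 to -1.36). Thbs1, thrombospondin, a ligand of Lrp1, was at 243 CPM unamputated, 101 CPM at 17 dpa and 87.0 CPM at 28 dpa, lower at 17 dpa (-1.26) and 28 dpa (-1.47). A proteoglycan and an integrin listed as receptors of the growth factors were called higher at 28 dpa, Cspg4 from 23.7 to 81.3 CPM (1.74) and Itgb3 from 48.7 to 102 CPM (1.05). Cspg4 is also among the pericyte markers, and the part of such cells in its level was not tested. At 12 dpa Mmp13, a collagenase cleared by Lrp1, was at 153 against 31.3 CPM (2.26), and at 17 dpa at 13.3 CPM (-1.17), while Gpc1 was at 18.0 against 37.6 CPM (-1.03). Apoe and Plau were lower at 12 dpa, at 102 against 268 CPM (-1.39) and 7.59 against 28.5 CPM (-1.78).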

How the data were processed

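Each of the 4 libraries was deposited by the authors as a matrix of UMI counts per gene and barcode, not normalized. The submitters' processing notes name Cell Ranger 7.1.0 and mm10, and the annotation release, the intron setting and the cell calling are not given in the sources used here. Of 32285 gene IDs, 32235 were found in GENCODE M21. The members and the gene lists were chosen with earlier results of these data known.

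Barcodes passed with 500 genes or more, 1000 UMIs or more and a mitochondrial share of 10% or less. Those with the highest Scrublet scores, 0.8% per 1000 barcodes, were removed as doublets. Counts were scaled to 10000 per cell and clustered on 2000 variable genes, 30 principal components and 15 neighbours (Leiden resolution 1). The members were left out, as were the pathway genes that were not also markers. A cluster was named from at least 3 markers, each in at least 25% of its cells, unless another class had more markers among its 10 leading genes or its cells were shallow. UMIs were summed per class and library, and 1 CPM was added before log2. For shares of cells, each cell was thinned to 2000 UMIs.

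The 8 members are all described. Other pathway genes were named when they were among the 3 with the largest fold past 2 per direction and comparison in fibroblast-like cells, with at least 20 CPM in the higher library. Some genes that this rule names are not reported here. For Ptn, Mdk and the syndecans the 5 genes with the highest correlation were named, among genes with at least 50 CPM in 1 unit. Total UMIs per library were 92313847 to 197140774, and their number sets the width of the intervals. The code was tested on simulated data. Python 3.11.15, scanpy 1.11.5, numpy 2.4.6, scipy 1.17.1, pandas 2.3.3, igraph 0.11.9 and matplotlib 3.10.9 were used. Alternatives changed the filters, the doublet removal, the clusters, the class names, the averaging, the scaling, the pseudocount, the thinning and the sex of the cells.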

Additional observations from a re-analysis of the deposited data

Results flagged for a closer look

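Ptprz1 had called ratios of opposite sign in different classes. It was higher in osteoblast-like cells, with log2 ratios of 1.98 at 17 dpa and 2.68 at 28 dpa, and lower in suprabasal keratinocyte-like cells at 17 dpa (-1.30). At 28 dpa it was lower in Schwann-like (-1.12), basal (-1.16), follicle (-1.33) and suprabasal (-1.69) keratinocyte-like cells. Sdc1 at 28 dpa was higher in T or NK-like (3.10) and neutrophil-like cells (2.27), on 12 and 7 UMIs (0.43 in the latter with no doublets removed), and lower in Schwann-like (-1.14) and osteoclast-like cells (-1.71). The Schwann-like value rested on 8 UMIs at 28 dpa and was 0.34 with no doublets removed, and the osteoclast-like one was -0.78 with finer clusters. Sdc4 at 17 dpa was higher in Schwann-like cells (1.56) and lower in T or NK-like cells (-1.22). Under at least 1 alternative each, the Schwann-like, basal, follicle and 17 dpa suprabasal calls of Ptprz1 and the T or NK-like call of Sdc4 also ended. With 1 library per group, none of these differences between classes was tested.

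Outside the measurement of the members, 54.2% of cells of the 12 dpa library were female by Xist and Y-linked UMIs, against 0.00981% in the unamputated library, although the labels give pooled sexes for both. In these libraries 2965 and 2274 cells had no sex call.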

How the results depend on the processing

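The values below are log2 ratios in fibroblast-like cells unless said. For Ptn at 12 dpa (-0.94) the ratio was -1.19 with the looser and -1.41 with the stricter filter on cells, -1.69 with no doublets removed, -0.83 at Leiden resolution 2, -0.39 with each cell named alone, -0.41 pooled with tenocyte-like cells, -1.16 as a mean over cells and -1.28 with the doublet share doubled. For Ptn at 17 dpa (-1.86) it was -1.76 (looser), -1.98 (stricter), -1.32 (cells alone), -1.60 (clusters named by best class), -1.25 (pooled), -2.02 (fixed mix of clusters) and -2.27 (doubled). For Ptn at 28 dpa (-4.94) it was -4.75 (looser), -5.21 (stricter), -4.60 (no doublets removed), -2.69 (cells alone), -3.42 (best class), -3.76 (pooled), -4.69 (mean over cells), -4.50 (pseudocount of 5 CPM), -4.20 (fixed mix) and -5.68 (doubled). For Mdk at 12 dpa (0.28) it was 0.01 (looser), 0.00 (stricter), -0.32 (no doublets removed), 0.81 (resolution 2), 0.10 (pooled), 0.06 (mean over cells) and 0.44 (doubled), so its sign is not settled. For Mdk at 17 dpa (-0.81) it was -0.58 (stricter), -0.59 (no doublets removed), -0.69 (resolution 2) and -0.98 (cells alone), and at 28 dpa (-2.59) -2.29 (no doublets removed), -2.41 (best class), -2.26 (pooled), -2.27 (mean over cells), -2.39 (pseudocount), -2.82 (male cells) and -2.17 (fixed mix). Ptn and Mdk at 28 dpa stayed past 2-fold under all 13 alternatives each. Of 325 other values, 249 stayed within the main interval, 72 lay outside it and 4 changed sign: Sdc1 in Schwann-like cells at 28 dpa (0.34, no doublets removed), Lrp1 at 12 dpa in T or NK-like cells (-0.33, no doublets removed, and -1.43, cells alone) and in neutrophil-like cells (-0.41, no doublets removed). Thinned to 3000 UMIs, 34.9%, 23.3%, 14.6% and 2.56% of fibroblast-like cells had a Ptn UMI. The cause was not tested for any of these. The fixed mix and the doubled doublet share were chosen after seeing the data. At 28 dpa the fixed mix rests in part on the cluster led by Tmem132c and Prss35, with 15 cells, 1 Ptn UMI and 0 Mdk UMIs. No value for male cells was possible at 12 dpa, where no cell was called male. No paired analysis was possible because each group held 1 library. Depth limits the lymphoid, neutrophil-like and Schwann-like calls that rest on under 20 UMIs.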
